A study of Mus musculus with 9 samples.

Results

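Glutathione S-transferases (Gst and the membrane-bound Mgst), UDP-glucuronosyltransferases (Ugt) and sulfotransferases (Sult) were compared in the liver of STAM mice, insulin-treated STAM mice and normal mice. A gene was included when its symbol belonged to a Gst class (alpha, kappa, mu, omega, pi, theta or zeta) or to Mgst, Ugt or Sult. The array carried 58 such genes, read by 80 probes, among 20972 genes with a symbol. Of the 58 genes, 45 gave a signal above background on all 3 arrays of at least 1 group and were tested: 22 of 24 Gst and Mgst genes, 14 of 14 Ugt genes and 9 of 20 Sult genes. A further 11 family symbols, among them Ugt1a1 and Gsta1, were not measured here.

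All mice were male and 20 weeks old. STAM mice are C57B/6J mice made diabetic by a streptozotocin injection given to newborns and then fed a high-fat diet, and they develop steatohepatitis and liver tumours. The STAM-NON group (3 mice) received no drug, the STAM-INS group (3 mice) carried the same injection and diet and was injected with insulin glargine, and the Normal group (3 mice) was of normal mice. The study's general methods place mice other than the STAM and obese ones on a standard chow, and the strain of the Normal mice is not given for these arrays in the sources used here. Whether tumour tissue was in the liver pieces is not given in the sources used here. Streptozotocin, high-fat diet and diabetes go together in the STAM groups, so their parts in a difference from Normal cannot be told apart. The question asked of these data was how conjugating enzymes differed between STAM and normal liver, and between insulin-treated and non-treated STAM liver.

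Conjugating enzymes attach a large polar group to drugs, hormones, bile acids and reactive lipids, so that these can leave the cell and pass into bile or urine. Gst enzymes attach glutathione, Ugt enzymes glucuronic acid taken from UDP-glucuronate, and Sult enzymes sulfate taken from PAPS (3'-phosphoadenosine 5'-phosphosulfate). Liver carries out most of this work, and in mice several members differ between the sexes and along the axis from portal tract to central vein.

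Each array gave 1 intensity per spot, expressed here as centred log2 signal, which is the log2 signal minus the 75th percentile of that array. A gene with several probes is represented by its brightest tested probe. Differences between groups are on the log2 scale, with standard errors (SE) and Benjamini-Hochberg adjusted p-values from limma fitted to 26277 probes. A difference is said to be called, or a gene to have risen or fallen, when its adjusted p was under 0.05. With 3 arrays per group, precision is limited by the number of arrays. Each array came from a different mouse, and litters and cages are not given in the sources used here.

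The 9 arrays held between 46.2% and 65.0% of spots well above background, and STAM-NON replicates 1 and 3 and STAM-INS replicate 1 stood apart at 59.3% to 65.0%. All STAM arrays lay on 1 slide and all Normal arrays on the other, so slide and disease cannot be told apart. Within the STAM slide, the STAM-NON arrays and STAM-INS replicate 1 lay in row 1 and the others in row 2. All Normal arrays lay in row 2 of their slide, so row and group cannot be told apart in STAM-NON minus Normal either. Hepatocyte markers were strongly present on every array, with a mean of 8.14 to 8.58 on STAM-NON, 8.59 to 8.63 on STAM-INS and 8.61 to 8.69 on Normal arrays. In STAM-NON 9 of 11 were below Normal (median difference -0.25), of which 2 were called. Over all tested probes 63.2% were below Normal and 9.76% were called lower. In whole liver, fewer cells of a type and less RNA per cell cannot be told apart.

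The 7 Ugt2b genes lie in 1 block on chromosome 5, and the bases just before each gene's start are shown because all 7 read lower in STAM-NON than in normal liver. The stretches are 100 bases each, read 5′ to 3′ on the gene's own strand and ending at the base before its start, from RefSeq on GRCm38.p6. Capitals mark a match to GTTANNNNTTAAC (reverse GTTAANNNNTAAC), letters that resemble the paired site bound by HNF1, a hepatocyte transcription factor. The letters were written down after these stretches had been read.
Ugt2b34 (chr5:86906938-86907037, minus strand): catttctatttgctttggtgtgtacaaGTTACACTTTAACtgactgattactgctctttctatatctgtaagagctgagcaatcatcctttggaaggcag
Ugt2b1 (chr5:86926504-86926603, minus strand): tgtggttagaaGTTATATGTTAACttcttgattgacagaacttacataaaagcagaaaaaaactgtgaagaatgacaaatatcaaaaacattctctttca
Ugt2b35 (chr5:87000760-87000859, plus strand): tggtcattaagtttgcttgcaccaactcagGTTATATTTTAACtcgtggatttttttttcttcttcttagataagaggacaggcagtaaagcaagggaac
Ugt2b36 (chr5:87092556-87092655, minus strand): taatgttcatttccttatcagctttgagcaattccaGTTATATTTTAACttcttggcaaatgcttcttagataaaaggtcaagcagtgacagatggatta
Ugt2b5 (chr5:87140341-87140440, minus strand): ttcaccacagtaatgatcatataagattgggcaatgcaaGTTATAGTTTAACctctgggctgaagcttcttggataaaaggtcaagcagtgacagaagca
Ugt2b37 (chr5:87254789-87254888, minus strand): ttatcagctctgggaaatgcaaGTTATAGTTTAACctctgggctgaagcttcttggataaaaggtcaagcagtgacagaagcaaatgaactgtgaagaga
Ugt2b38 (chr5:87424204-87424303, minus strand): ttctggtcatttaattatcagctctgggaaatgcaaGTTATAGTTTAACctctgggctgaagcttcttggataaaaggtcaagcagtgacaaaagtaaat

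The match began between 61 and 89 bases before the start in these genes. Searched on either strand of windows running from 250 bases before to 50 bases after a start, it occurred in 7 of 7 Ugt2b genes, a count fixed by writing the letters from them, and in Ugt3a1. Of the 58 enzymes, 50 had such a window. Over all genes with a window 0.222% held the letters, which is given as a description of how common they are. The 250 bases before the start were 90.0% identical between Ugt2b37 and Ugt2b38, 84.8% between Ugt2b38 and Ugt2b5 and 80.0% between Ugt2b37 and Ugt2b5, so these genes share sequence as neighbours and copies and are not independent cases. The core of the antioxidant response element, TGACNNNGC (reverse GCNNNGTCA), through which Nrf2 acts on Gst genes, was found in 4 of 50 enzymes (Gsta3, Gstm5, Gstm7 and Mgst1), against 14% of all genes. A single HNF1 site unit, GTTAAT (reverse ATTAAC), whose letters can fall inside the paired motif, was found in 0 of 7 Ugt2b genes and in 11 of 50 enzymes, against 8.24% of all genes. The STAT5 letters TTCNNNGAA were found in 0 of 7 Ugt2b genes and in 5 of 50 enzymes, against 9.55%.

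Conjugating enzymes were mostly lower in STAM-NON than in normal liver. The difference STAM-NON minus Normal was below 0 for 38 of 45 genes, with a median of -0.77, against a median of -0.13 over all tested probes. Of the 45 genes, 10 were called (22.2%), 9 lower and 1 higher (Mgst2, which was above background on 1 of 3 Normal arrays). Over all tested probes 16.1% were called, 9.76% lower and 6.30% higher, while 20.0% of the enzymes were called lower. The 3 STAM-NON arrays lay below all 3 Normal arrays for 27 of 45 genes, a state found for 28.0% of all probes. The differences were largest in the Ugt genes (median -1.06, 4 of 14 called lower), followed by Gst and Mgst (median -0.51, 2 called lower and 1 higher of 22) and Sult (median -0.36, 3 of 9 called lower).
These counts depend on single arrays. Leaving out STAM-NON replicate 2, the mildest of its group, gave 26 called enzymes, leaving out STAM-NON replicate 1 or 3 gave 5, leaving out Normal replicate 1 gave 4 and leaving out Normal replicate 2 or 3 gave 2. With the 3 arrays of most spots above background left out, which keeps only STAM-NON replicate 2 in its group, limma called 0 enzymes, 10 had an unadjusted p under 0.05 and the median was -0.38.

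**Figure D1:**
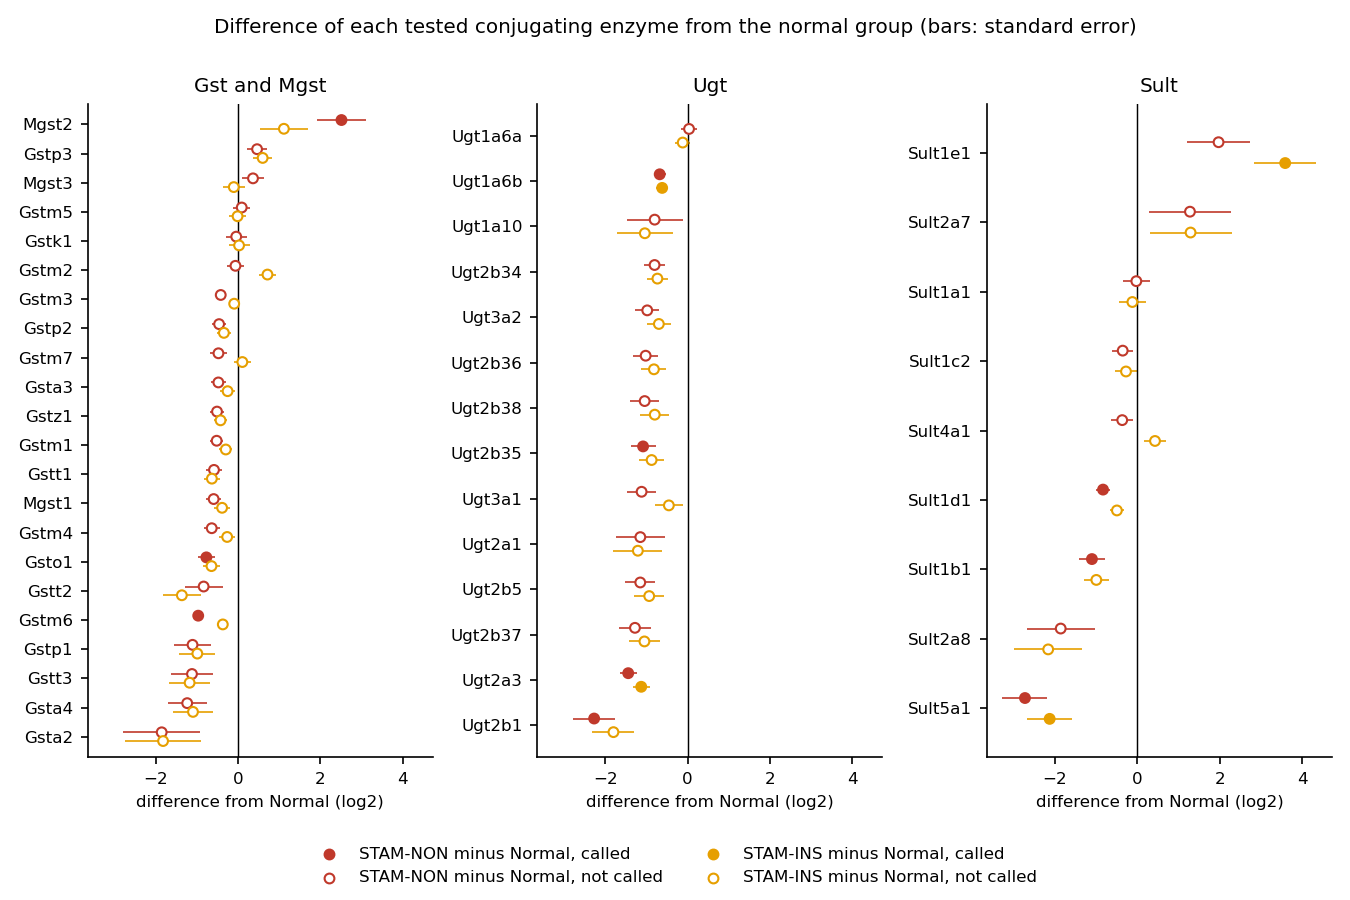
Difference from the Normal group (log2, horizontal axis) of each of the 45 tested enzymes, for STAM-NON in red and STAM-INS in orange, with bars for the standard error and filled points for differences with an adjusted p under 0.05. Most points lie left of 0, and the points of Mgst2 and Sult1e1 are not exact differences, since 1 and 0 of their 3 Normal arrays were above background.

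The Ugt2 genes, whose enzymes glucuronidate steroids, bile acids and many drugs, were all lower on average in STAM-NON. The 9 differences from Normal ran from -2.27 to -0.80 with a median of -1.15, and 8 of the 9 genes had STAM-NON arrays wholly below the Normal arrays, a state found for 28.0% of all probes. Their signs did not change under any of the 5 other scalings or background corrections tried.
Ugt2b1 showed the deepest fall. Its centred log2 signal was 2.28, 3.0 and 1.83 on the STAM-NON arrays, 3.54, 1.57 and 3.41 on the STAM-INS arrays and 4.52, 4.62 and 4.79 on the Normal arrays. All 6 STAM arrays lay below the Normal arrays, and the STAM-INS arrays covered the range of the STAM-NON arrays. The STAM-NON mean was 0.207 times the Normal mean (difference -2.27, SE 0.51, adjusted p = 0.0260), and this call was lost without any 1 Normal array or without STAM-NON replicate 1 or 3.
Ugt2a3, which glucuronidates bile acids, read 4.07, 4.80 and 4.23 in STAM-NON, 4.67, 4.41 and 4.96 in STAM-INS and 5.77, 5.80 and 5.84 in Normal. It was the steadiest of the family: the Normal arrays lay close together and every STAM array lay below them. It fell in STAM-NON (-1.44, SE 0.21, adjusted p = 0.0088), a call kept without any 1 array, and in STAM-INS (-1.13, SE 0.21, adjusted p = 0.0137), a call lost without Normal replicate 3 or STAM-INS replicate 2.
Ugt2b35 read 3.46, 3.62 and 2.48 in STAM-NON, 3.27, 3.09 and 3.83 in STAM-INS and 4.36, 4.16 and 4.28 in Normal. Its fall in STAM-NON was at the edge of the threshold (-1.08, SE 0.30, adjusted p = 0.0466), was lost when any array other than STAM-NON replicate 2 was left out, and was -1.01 (adjusted p = 0.0834) by its other probe.
The remaining Ugt2b genes are outside the rule for named genes and are given because they share the block shown above. Ugt2b5, Ugt2b34, Ugt2b36, Ugt2b37 and Ugt2b38 differed from Normal by -1.15, -0.80, -1.02, -1.28 and -1.04 in STAM-NON, with adjusted p-values from 0.0525 to 0.0732, and none was called. Ugt2a1 differed by -1.15 (adjusted p = 0.2000) but was above background on only 2 STAM-NON and 1 STAM-INS arrays.
The order of the arrays was shared across the family. STAM-NON replicate 2 was the highest of its group for 9 of 9 Ugt2 genes and STAM-NON replicate 3 the lowest for 7, and STAM-INS replicate 2 was the lowest of its group for 8. Over all 45 enzymes, STAM-NON replicate 3 was the lowest of its group for 29 and STAM-INS replicate 2 for 30. The spread between mice of 1 group was therefore common to many genes, and the genes are not separate replicates of it. Near-identical copies can also be read by each other's probes, and probe sequences were not used here.

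**Figure D2:**
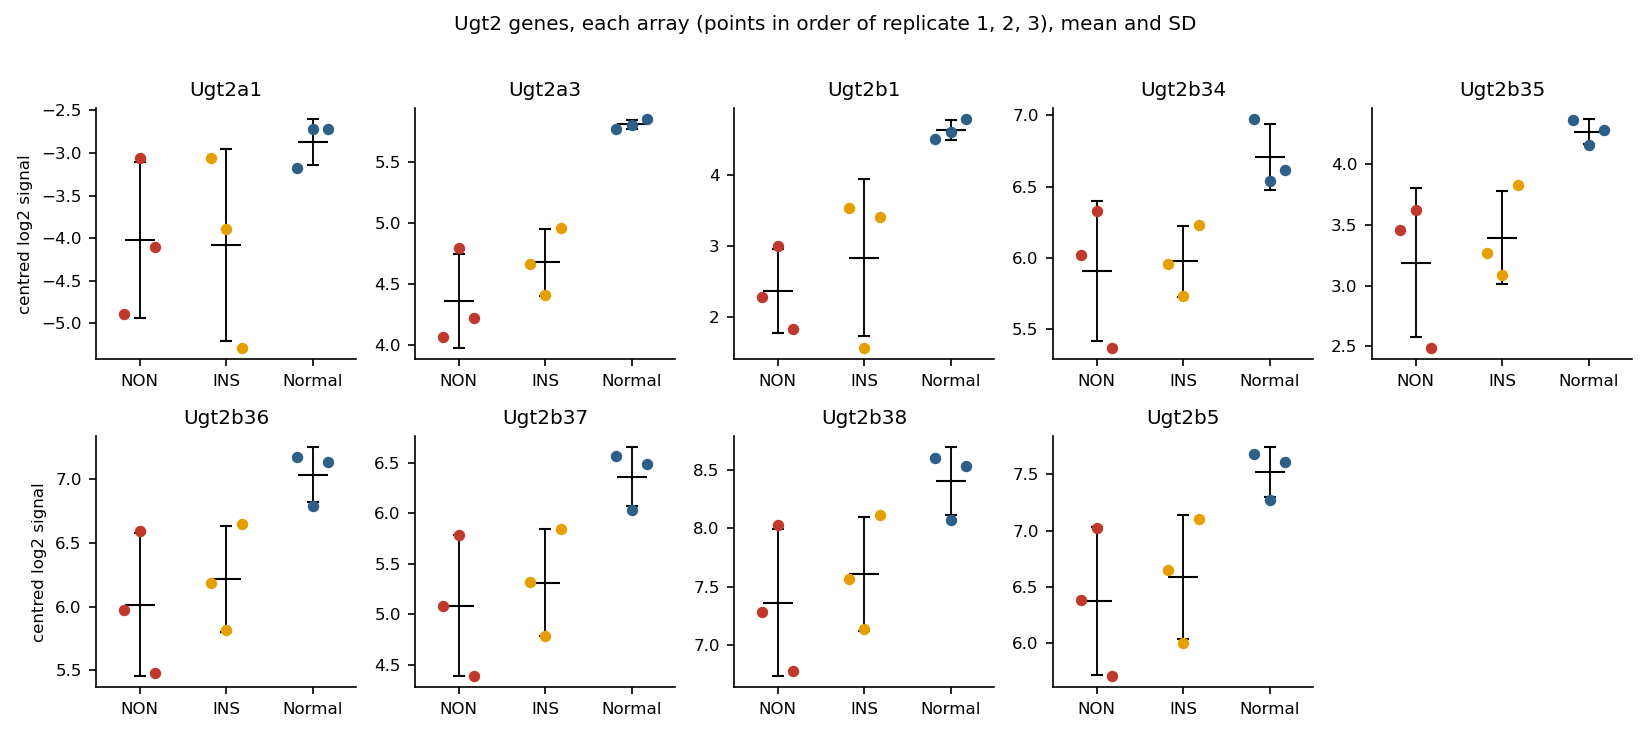
Centred log2 signal (vertical axis) of the 9 Ugt2 genes on each array, with points in the order of replicates 1, 2 and 3 in STAM-NON (red), STAM-INS (orange) and Normal (blue), and black bars for the mean and SD of 3 arrays. STAM-NON replicate 2 is the highest red point in all 9 panels, and the Normal points of Ugt2a3 and Ugt2b1 lie clear above the STAM points.

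Among the Ugt1 genes, Ugt1a6b, an enzyme for small flat phenols, fell in both STAM groups. Its signal was 8.24, 8.24 and 7.86 in STAM-NON, 7.98, 8.14 and 8.39 in STAM-INS and 8.81, 8.75 and 8.82 in Normal, and all STAM arrays lay below the Normal arrays. The difference from Normal was -0.68 in STAM-NON (SE 0.15, adjusted p = 0.0253) and -0.62 in STAM-INS (SE 0.15, adjusted p = 0.0327). The second probe of the gene gave -1.02 (adjusted p = 0.0278) and -0.58 (adjusted p = 0.1289). Without any 1 Normal array neither call held, and the STAM-NON call was also lost without STAM-NON replicate 3 and the STAM-INS call without STAM-INS replicate 1 or 2. Ugt1 transcripts share their downstream exons, so a probe placed there would read the whole locus. Ugt1a6a (0.03) and Ugt1a10 (-0.80, adjusted p = 0.4174) were not called. Ugt3a1 and Ugt3a2, which can use other sugar donors, differed from Normal by -1.12 and -0.98 in STAM-NON (adjusted p = 0.0582 and 0.0557) and by -0.46 and -0.70 in STAM-INS.

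The mu class, Gstm, held the enzyme with the smallest p in STAM-NON minus Normal, Gstm6. It also held the 4 of 45 enzymes whose STAM-INS arrays lay wholly above the STAM-NON arrays, a share near the 7.24% of all probes in that state, and none of these 4 differences was called. Gstm6 had a signal of 4.26, 4.46 and 4.22 in STAM-NON, 5.08, 4.74 and 4.90 in STAM-INS and 5.11, 5.38 and 5.33 in Normal. The 3 groups did not overlap, with STAM-INS between the other groups. Gstm6 fell in STAM-NON to 0.512 times Normal (-0.97, SE 0.14, adjusted p = 0.0084), the call was kept without any 1 array, and all 3 probes of the gene were called, with differences of -1.18 to -0.97. STAM-INS differed from STAM-NON by 0.60 (adjusted p = 0.3229) and from Normal by -0.37 (adjusted p = 0.1018).
Gstm2 read 5.18, 4.71 and 4.94 in STAM-NON, 5.87, 6.0 and 5.29 in STAM-INS and 4.90, 5.10 and 5.02 in Normal. Here STAM-NON and Normal overlapped and the STAM-INS arrays were highest. STAM-INS differed from STAM-NON by 0.78 (SE 0.20, adjusted p = 0.3973) and from Normal by 0.72 (adjusted p = 0.0504), and all 3 probes gave like values.
Gstm7 read 1.18, 0.79 and 1.05 in STAM-NON, 1.83, 1.54 and 1.39 in STAM-INS and 1.12, 1.85 and 1.48 in Normal. Its STAM-INS arrays lay among the Normal arrays and above all STAM-NON arrays (0.58, adjusted p = 0.5071).
For Gstm3 the probes disagreed in sign. The brighter probe read 5.93, 6.03 and 5.69 in STAM-NON, 6.14, 6.18 and 6.31 in STAM-INS and 6.39, 6.17 and 6.35 in Normal (STAM-NON minus Normal -0.42, adjusted p = 0.0561), while the other read 6.27, 5.43 and 5.63, then 6.16, 6.56 and 5.79, then 5.35, 5.02 and 5.21 (0.58, adjusted p = 0.1432). The latter was called higher in STAM-INS than in Normal (0.98, adjusted p = 0.0411), where the former gave -0.09.
Gstm1 also had probes on either side of the threshold, at -0.52 (adjusted p = 0.0551) and -0.72 (adjusted p = 0.0427). Mu-class genes are close copies in a cluster, and reads of 1 by the probe of another cannot be told apart here.
The gene patterns most like Gstm6 over the 9 arrays were those of Nqo2 (Pearson r = 0.985), Dpyd (0.974), Lipc (0.969), Cwf19l2 (0.968) and Eif4a2 (0.967), given as a description of arrays that share slides and groups.

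**Figure D3:**
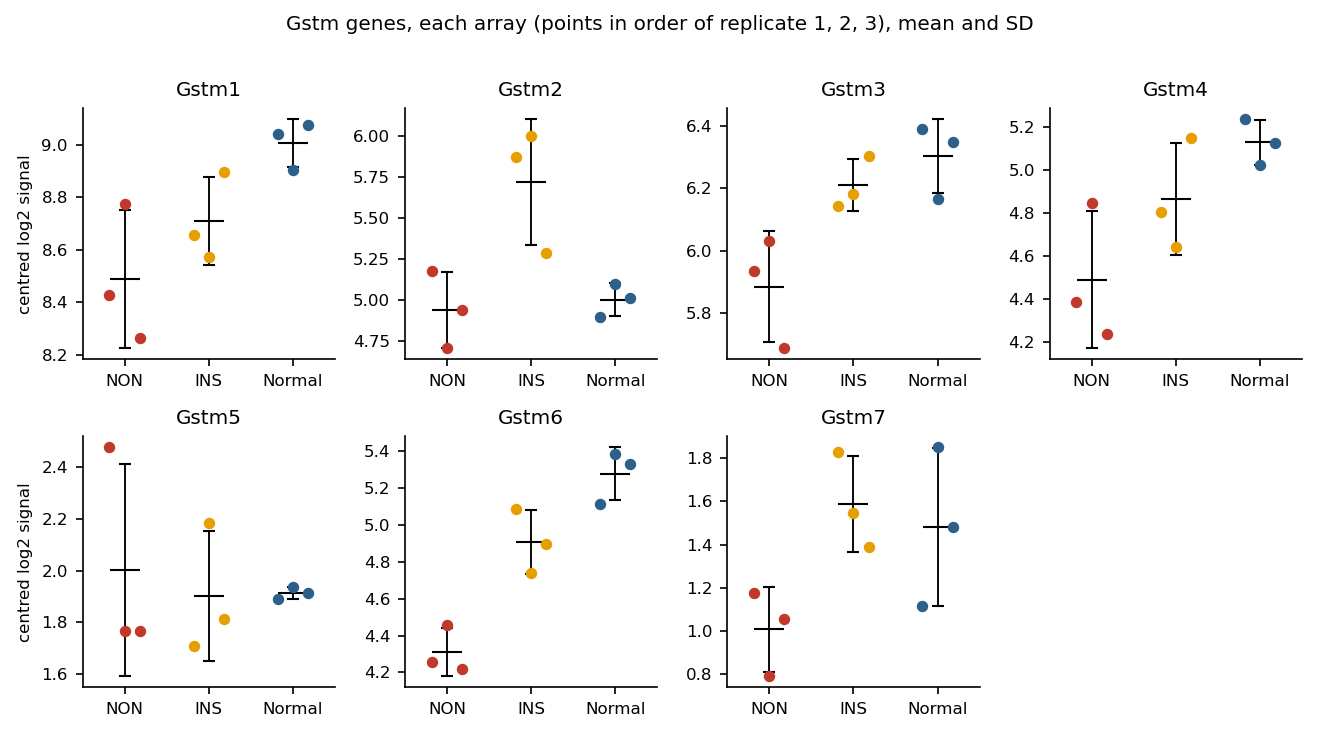
Centred log2 signal (vertical axis) of the 7 Gstm genes on each array, with points in the order of replicates 1, 2 and 3 in STAM-NON (red), STAM-INS (orange) and Normal (blue), and black bars for the mean and SD of 3 arrays. The orange points lie above the red points in the panels of Gstm2, Gstm3, Gstm6 and Gstm7, and below the blue points in Gstm6.

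The pi class was uneven between mice. Gstp1, an abundant cytosolic transferase in male mouse liver, read 7.00, 8.55 and 7.05 in STAM-NON, 7.48, 7.19 and 8.28 in STAM-INS and 8.76, 8.32 and 8.83 in Normal. STAM-NON replicate 2 reached the Normal range and the other STAM-NON arrays did not, and the difference of -1.10 (SE 0.44) was not called (adjusted p = 0.1124). Gstp2 gave -0.46 by its brighter probe and -1.18 by the other, neither called, and the latter followed the arrays of Gstp1 closely. Gstp3, outside the rule for named genes, was at 0.46 (adjusted p = 0.1973).
Alpha-class genes handle lipid peroxidation products such as 4-hydroxynonenal, on which Gsta4 is most active. Gsta4 read 2.35, 2.67 and 0.69 in STAM-NON, 2.21, 1.5 and 2.41 in STAM-INS and 3.21, 2.98 and 3.22 in Normal, and all STAM arrays lay below Normal, yet the spread kept it from being called (-1.23, SE 0.47, adjusted p = 0.1038). Gsta2 and Gsta3 differed by -1.85 and -0.48 in STAM-NON, neither called.
Among the other Gst classes, Gsto1, which reduces dehydroascorbate and arsenic compounds, fell. It read 5.97, 6.46 and 5.62 in STAM-NON, 6.17, 6.01 and 6.23 in STAM-INS and 6.91, 6.61 and 6.82 in Normal, with all STAM arrays below Normal (-0.77, SE 0.20, adjusted p = 0.0398). That call was lost when any array other than STAM-NON replicate 2 was left out. Gstz1, which works in tyrosine breakdown, differed by -0.51 (adjusted p = 0.0610), Gstt1 by -0.58 (adjusted p = 0.0648) and the mitochondrial and peroxisomal Gstk1 by -0.04 (adjusted p = 0.9150). Gstt2 and Gstt3 were at -0.83 and -1.12, not called.
Of the 3 membrane-bound enzymes, 1 was called in STAM-NON minus Normal, where 16.1% of all tested probes were called. Mgst2, which can make leukotriene C4, was the enzyme called higher in STAM-NON, and it was close to background and passed the filter on dim probes only through that group. It read -0.64, -2.45 and -1.25 in STAM-NON, -1.74, -3.0 and -3.80 in STAM-INS and -4.40, -3.97 and -3.50 in Normal, and was above background on 3, 2 and 1 arrays of those groups. With 2 of 3 Normal arrays not above background, the measured difference of 2.51 (SE 0.59, adjusted p = 0.0285) is not an exact size, and the call was lost without any 1 Normal array or without STAM-NON replicate 1 or 3. STAM-INS differed from STAM-NON by -1.40 (adjusted p = 0.5594). Mgst1, the main microsomal form of liver, differed by -0.59 (adjusted p = 0.0623), and Mgst3 by 0.36 (adjusted p = 0.3556).

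Of the 9 tested sulfotransferases, 3 fell in STAM-NON (Sult5a1, Sult1d1 and Sult1b1), Sult5a1 fell and Sult1e1 rose in STAM-INS, and 5 were called in no comparison. Over all tested probes 9.76% were called lower in STAM-NON, and 8.73% lower and 5.16% higher in STAM-INS. Sult5a1, whose substrate is little known, showed the largest fall of all enzymes. It read -2.41, -0.68 and -1.74 in STAM-NON, -0.11, -1.68 and -1.25 in STAM-INS and 0.37, 1.47 and 1.5 in Normal, with no overlap between STAM and Normal. The difference from Normal was -2.73 in STAM-NON (SE 0.55, adjusted p = 0.0190) and -2.13 in STAM-INS (SE 0.55, adjusted p = 0.0383). The STAM-NON call was lost without Normal replicate 2 or 3 or STAM-NON replicate 1 or 3, and the STAM-INS call without any 1 Normal array or without STAM-INS replicate 2 or 3.
Sult1d1, which sulfates catecholamines, read 2.24, 2.38 and 2.43 in STAM-NON, 2.93, 2.33 and 2.78 in STAM-INS and 3.18, 3.35 and 3.0 in Normal. It fell in STAM-NON (-0.83, SE 0.17, adjusted p = 0.0208), and its other probe fell in both STAM groups (-1.14, adjusted p = 0.0159, and -0.89, adjusted p = 0.0296). The first of these calls was lost without any 1 Normal array or STAM-NON replicate 1.
Sult1b1, which acts on phenols and thyroid hormone, read 2.04, 2.30 and 1.89 in STAM-NON, 2.27, 2.15 and 2.14 in STAM-INS and 2.5, 3.92 and 3.12 in Normal. Here the Normal arrays carried most of the spread. The fall in STAM-NON (-1.10, SE 0.31, adjusted p = 0.0466) was lost when any array other than Normal replicate 1 was left out.
Sult1e1, the oestrogen sulfotransferase, was the member that rose in STAM-INS. It read -4.24, -2.74 and -1.87 in STAM-NON, 0.11, -2.43 and -1.67 in STAM-INS and -4.56, -4.55 and -5.66 in Normal. All 6 STAM arrays were above background and above every Normal array, and no Normal array was above background. STAM-INS was therefore at least 5.88-fold higher than Normal, a bound that takes, on each Normal array, the higher of the dimmest signal well above background and the probe's own signal. Sult1e1 passed the filter on dim probes only through the STAM groups. Its limma call (adjusted p = 0.0211) belongs to the fitted difference of 3.59, which uses Normal values below background, and not to the bound. That call was lost without any 1 Normal array or without STAM-INS replicate 3. It was also lost without the filter on dim probes, after normexp background correction and with the replicate number as a block. For STAM-NON the same bound, taken on the group mean, was 1.92-fold, and the fitted difference of 1.97 was not called (adjusted p = 0.1023). STAM-NON replicate 1, at -4.24, lay below the dimmest signal well above background on each Normal array (-4.09 to -3.68). Over the alternatives the fitted difference ran from -0.19 to 2.62. STAM-INS differed from STAM-NON by 1.62 (adjusted p = 0.5830).
Sult2a8, a bile acid sulfotransferase of mouse liver, read 5.77, 6.03 and 3.96 in STAM-NON, 6.09, 2.97 and 5.79 in STAM-INS and 6.87, 7.23 and 7.24 in Normal. In each STAM group 1 mouse lay far below the others, and neither difference was called (-1.86, adjusted p = 0.1458, and -2.16, adjusted p = 0.1123). Sult2a7 read 3.06, 2.93 and -0.78 in STAM-NON against -0.01, 0.96 and 0.42 in Normal (1.28, adjusted p = 0.3775), with the same STAM-NON array lowest. Sult1a1, Sult1c2 and Sult4a1 were not called in any comparison.
The 13 genes that were not tested were Gsto2, Gstt4 and 11 sulfotransferases (Sult1c1, Sult2a1, Sult2a2, Sult2a3, Sult2a4, Sult2a6, Sult2b1, Sult3a1, Sult3a2, Sult6b1 and Sult6b2). Sult2a1 and Sult3a1, which mouse liver expresses mainly in females, were well above background on 1 of 9 and 2 of 9 arrays, none of them Normal.

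**Figure D4:**
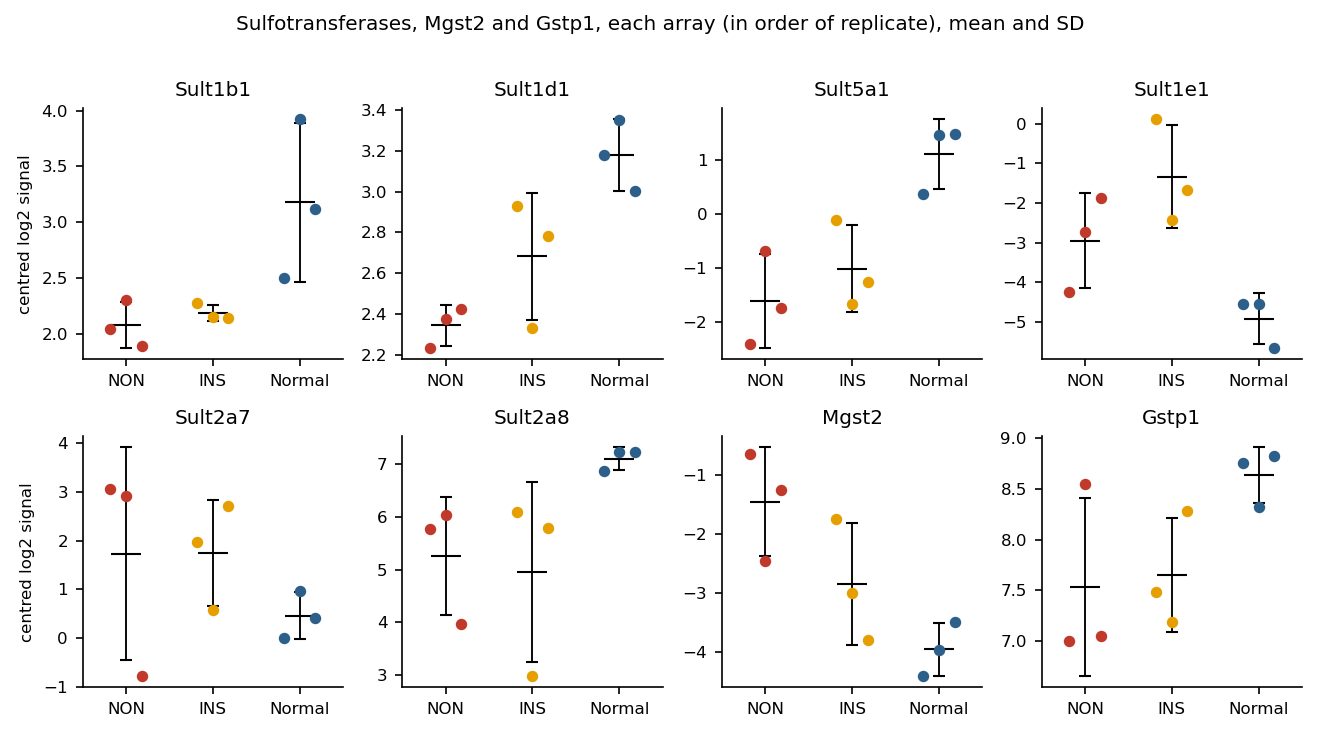
Centred log2 signal (vertical axis) of 6 sulfotransferases, Mgst2 and Gstp1 on each array, with points in the order of replicates 1, 2 and 3 in STAM-NON (red), STAM-INS (orange) and Normal (blue), and black bars for the mean and SD of 3 arrays. Sult1b1, Sult1d1, Sult5a1 and Sult2a8 lie below, and Sult1e1 above, the Normal points on all 6 STAM arrays, while no Normal array of Sult1e1 was above background.

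Insulin treatment was not followed by a called difference in any conjugating enzyme. Between STAM-INS and STAM-NON, limma called 0 of 45 enzymes, against 24 of 26277 probes (0.0913%), 6 enzymes had an unadjusted p under 0.05 (Gstm2, Gstm3, Gstm6, Gstm7, Mgst2 and Sult4a1) and the lowest adjusted p was 0.323. With trend and robust fitting limma also called 0, with 6 at an unadjusted p under 0.05. The median difference was 0.14, against 0.03 over all probes, and 34 of 45 differences were above 0, but centring on the spike-in probes turned the median to -0.086 and moved the median of all probes to -0.20. STAM-INS arrays lay wholly above STAM-NON arrays for 4 enzymes, all mu class (Gstm2, Gstm3, Gstm6 and Gstm7), and wholly below for none, and 7.24% of all probes lay wholly above. The 4 differences kept their sign in all 25 alternatives. Leaving out STAM-NON replicate 3 gave 1 called enzyme, Gstt2, which was lower in STAM-INS.

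In insulin-treated STAM mice the enzymes were also mostly below Normal. The difference STAM-INS minus Normal was below 0 for 37 of 45 genes, with a median of -0.49 against -0.09 over all probes. Of the 45 genes, 4 were called (8.89%), Ugt2a3, Ugt1a6b and Sult5a1 lower and Sult1e1 higher. Sult1e1 was above background on 0 of 3 Normal arrays and passed the filter on dim probes only through the STAM groups. Its call uses Normal values below background. Over all probes 13.9% were called, 8.73% lower and 5.16% higher, so the share of enzymes called was below that of all probes. The medians were -0.85 for Ugt, -0.32 for Gst and Mgst and -0.27 for Sult, and all 14 Ugt differences were below 0, although that of Ugt1a6a (-0.12) turned to 0.0035 when arrays were centred on the probes detected on all of them. This comparison shares the Normal arrays with STAM-NON minus Normal, so the values stand side by side and are not independent. Leaving out 1 array gave 0 called enzymes without Normal replicate 3 (limma, 13 at an unadjusted p under 0.05), 1 without Normal replicate 2 or STAM-INS replicate 2, 2 without Normal replicate 1 and 11 without STAM-NON replicate 3, and within slide row 2 (STAM-INS replicates 2 and 3) 9 were called.

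Genes that supply or accompany conjugation were read from lists, whose counts stand beside the 9.76% of all probes called lower and 6.30% called higher in STAM-NON, and 8.73% and 5.16% in STAM-INS. Among other conjugating enzymes (methyl, acetyl and amino acid transfer), 7 of 15 fell and 1 rose in STAM-NON. The largest falls were those of Acsm5 (-1.29, adjusted p = 0.0268), Gm4952 (-1.10, adjusted p = 0.0360) and Acsm1 (-0.84, adjusted p = 0.0325), which belong to glycine conjugation of acids, and the rise was in As3mt (0.71, adjusted p = 0.0285), which methylates arsenic. In STAM-INS 2 fell and 1 rose.
For glutathione supply and recycling, 3 of 18 rose and 1 fell in STAM-NON. Gpx3 (3.30, adjusted p = 0.0407) and Gpx2 (2.63, adjusted p = 0.0049) are glutathione peroxidases, G6pdx (1.33, adjusted p = 0.0190) makes NADPH, and Chac2 (-0.78, adjusted p = 0.0317) breaks glutathione down. In STAM-INS 3 rose and 0 fell.
Of 7 genes of UDP-glucuronate supply and release, 1 fell, Ugp2 (-0.47, adjusted p = 0.0485), which makes UDP-glucose, and in STAM-INS limma called 0 (3 at an unadjusted p under 0.05). Of 8 genes of PAPS supply and sulfate release limma called 0 in STAM-NON (3 at an unadjusted p under 0.05), and 1, the sulfatase Arsa, fell in STAM-INS (-1.09, adjusted p = 0.0188).
Among 7 export pumps for conjugates, Abcc5 (1.31, adjusted p = 0.0106) and Abcc1 (1.19, adjusted p = 0.0297) rose and Abcc6 (-0.95, adjusted p = 0.0129) fell in STAM-NON, while in STAM-INS 1 rose and 1 fell.
Of 18 regulators, 3 were called in STAM-NON, against 16.1% of all probes called in either direction, and all 3 fell: Nr1i3, the drug-sensing receptor CAR (-0.81, adjusted p = 0.0279), Rxra, its partner (-0.61, adjusted p = 0.0219), and Nr1h4, the bile acid receptor (-0.46, adjusted p = 0.0453). In STAM-INS 4 fell, and in neither group did any rise. Of 15 Nrf2 targets outside the 3 families 4 rose in STAM-NON, led by Cbr3 (3.71, adjusted p = 0.0088), and 4 in STAM-INS, while 0 fell. The median of this list was 0.02 in STAM-NON and 0.26 in STAM-INS. In each comparison with Normal, 9 of its genes were above 0 and 6 below. In STAM-INS minus STAM-NON limma called 0 of the 181 genes tested in all lists, markers included, and 20 had an unadjusted p under 0.05.

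Some markers of sex, zone and cell type were called in STAM-NON minus Normal, and for female-biased, stellate cell and lymphocyte markers limma called 0. Over all tested probes 9.76% were called lower, 6.30% were called higher and 63.2% were below 0. Of 12 male-biased liver genes, 3 fell in STAM-NON, 12 of 12 were below 0 (median -1.92) and the array means were 2.07 to 4.63 in STAM-NON, 3.40 to 4.89 in STAM-INS and 5.58 to 5.82 in Normal. Of 9 female-biased genes limma called 0 (5 at an unadjusted p under 0.05), and 8 were above 0 (median 1.02), with array means of 0.97 to 3.23, 0.56 to 1.15 and -0.18 to 0.12. Of 11 central-vein markers 4 fell (median -0.88), and of 11 portal markers 3 fell (median -0.32). Of 11 hepatocyte markers 2 fell (median -0.25).
Some markers of other cells rose in STAM-NON, where 6.30% of all tested probes were called higher. Of 5 bile duct markers 3 rose (array means -1.19 to -0.43, against -2.24 to -1.32 in Normal), with Epcam, Muc1 and Cldn4 not above background in any whole group. Of 8 macrophage markers 2 rose (3.68 to 4.42 against 2.81 to 3.35), and of 8 endothelial markers 1 rose (1.97 to 2.82 against 1.94 to 2.09), with array means in that order of group. Limma called 0 of 9 stellate cell markers (4 at an unadjusted p under 0.05, array means 0.39 to 0.81 against -0.16 to 0.28) and 0 of 3 lymphocyte markers (1 at an unadjusted p under 0.05, 0.37 to 0.84 against 0.24 to 0.64), and Cd8a, Cd79a, Ms4a1 and Ncr1 were not tested. Of 8 fetal liver and tumour markers 4 rose (0.77 to 2.39 against -0.87 to -0.44), and H19, Gpc3 and Igf2 were not tested. Of 4 markers of pancreas, gut and kidney 1 rose, with Prss1, Cpa1, Vil1, Umod and Slc34a1 untested. The part of these cells and states in the enzymes' differences was not tested.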

How the data were processed

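Liver RNA of 9 mice was labelled with Cy3 and hybridised to 1-colour Agilent mouse arrays, 1 array per mouse. The authors deposited the scanner output of Agilent Feature Extraction 11.5.1.1, which holds a background-corrected intensity per spot, and no normalisation or test is given in the sources used here. Control spots and 161 to 217 outlier-flagged spots of 59305 per array were left out, 0 spots were saturated, and log2 intensity was centred on the 75th percentile of each array. Spots of a probe were averaged. Probes were tested if at least 0.5 of their spots were well above background on all 3 arrays of a group. Groups were compared with limma 3.58.1 (R 4.3.3; lmFit and eBayes, 6 residual degrees of freedom, two-sided), with Benjamini-Hochberg adjustment over 26277 probes. Accessions were matched without version to RefSeq genes (GRCm38.p6), which named 27656 of 55681 probes. The same assembly gave the upstream sequences and motif windows. The fit was tested on simulated data with independent noise for each probe and array. The simulated data held no spread shared across genes and no slide effect, so that test says nothing on either. Members, gene lists and tests were chosen with earlier results of these data known.

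Named genes were all enzymes past the threshold, those whose STAM-INS and STAM-NON arrays did not overlap, the smallest p of each family, and 8 chosen genes, of which 7 were measured; other members given with values were chosen after their values were seen. Lists covered other conjugation, glutathione, UDP-glucuronate and PAPS supply, export, regulators, Nrf2 targets, sex-biased genes and cell markers. Some genes of these lists are not reported here and were left out of their counts. The normexp correction used the median spot signal and a background offset of 50, since the mean signal was not used here.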

Additional observations from a re-analysis of the deposited data

Results flagged for a closer look

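Sulfotransferase genes that were too dim to be tested gave signal above background on some STAM arrays and on no Normal array, and they are listed for that reason. Sult2a1, which sulfates bile acids and steroids, reached a centred log2 signal of -1.65 on STAM-NON replicate 1, where its highest Normal array was at -5.61. Sult2a2 reached -1.65 on the same array (highest Normal -4.25), Sult2a6 -2.37 (-5.56), Sult2b1 -2.24 (-4.40), Sult2a4 -3.23 (-5.90) and Sult2a3 -4.35 (-4.51). Sult2a3 was at the level of background, since it read -4.15 on STAM-INS replicate 3 without being above background there. On STAM-NON replicate 3 the highest values were -3.35 for Sult3a1 (highest Normal -5.81), -3.87 for Sult3a2 (-5.83) and -4.13 for Sult6b2 (-4.80). The arrays on which these genes were above background were STAM-NON replicates 1 and 3 and STAM-INS replicate 1, which had the most spots above background, and for Sult2a2 also STAM-NON replicate 2. Sult2a genes are close copies, so their values are not separate observations. None of these differences was tested.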

How the results depend on the processing

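The median of the enzymes stayed below 0 in STAM-NON minus Normal and in STAM-INS minus Normal under every alternative run, while the number of calls changed. In STAM-NON minus Normal (10 enzymes called, median -0.77), 23 were called at an adjusted p under 0.1, 22 after normexp correction, 22 with trend and robust fitting, 16 among probes above background on all arrays, 26 with the slide row as a random block, 6 after quantile normalisation, 5 with spike-in centring, and 0 without a filter on dim probes (30 at an unadjusted p under 0.05), with the slide row as a block (8) or without the 3 arrays with most spots above background (10). The fit with the row as a random block estimated a correlation of -0.094 between arrays of the same row. Only STAM-INS had arrays in both rows, so both counts with the row as a block rest on that group to separate row from group. Leaving out 1 array gave 2 to 26. The median was -0.50 after quantile normalisation, -0.47 with spike-in centring, -0.51 without a filter, -0.38 without those 3 arrays and -0.78 to -0.52 without 1 array. Spike-in centring moved the median of all probes from -0.13 to 0.17. In STAM-INS minus STAM-NON (0 called, median 0.14), leaving out 1 array gave 0 to 1 calls and medians of -0.069 to 0.36, and the median was -0.086 with spike-in centring and -0.20 without those 3 arrays. In STAM-INS minus Normal (4 called), 14 were called at an adjusted p under 0.1, 9 after normexp correction, 8 with trend and robust fitting, 17 with only the 2 groups compared, 9 without those 3 arrays, 9 within slide row 2, 2 with spike-in centring, 0 without a filter (17 at an unadjusted p under 0.05) and 0 to 11 without 1 array. The cause of these changes was not tested. For STAM-INS minus Normal, the settings without those 3 arrays and within slide row 2 compare the same arrays. Their counts are therefore 1 result. The settings without those 3 arrays and within a slide row were chosen after seeing the data, and where they leave 1 array in a group, that array is assumed to vary like the others.

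Replicate numbers are shared by the groups, but same-numbered samples did not deviate together (r -0.288 to 0.149 over 9 pairs, against -0.193 to 0.283 over 18 other pairs). With the replicate number as a block, 4, 0 and 1 enzymes were called in STAM-NON minus Normal, STAM-INS minus STAM-NON and STAM-INS minus Normal.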
